A study of Mus musculus with 3 samples.

Results

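A set of 10 cytokine receptor genes of CD4+ T cells was followed through 3 libraries of full-length transcripts: Il2ra, Il2rb, Il2rg, Il7r, Il4ra, Il6ra, Il6st, Il21r, Ifngr1 and Ifngr2. A transcript model, the chain of exons that the authors' pipeline built from clustered long reads, was taken as a member when it lay on the strand of one of these genes and shared more splice sites with it than with any other gene of the GENCODE M21 annotation of GRCm38, with shared exonic bases deciding for models without introns. This gave 110 transcript models of 34238, from 9 of the 10 genes, since Il6ra had no model in any library. The rule used gene identity and position alone and no measured level, although the genes themselves were chosen with earlier results of these data known.

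Cytokine receptors are built from separate chains, each with an outer part and a stretch that crosses the membrane. The chains that signal carry an inner part that binds Janus kinases, whereas the alpha chains of the receptors of interleukins 2 and 6 add to ligand binding and bind no such kinase. Bound cytokine brings the chains together, the kinases are activated and phosphorylated STAT proteins enter the nucleus. A chain made without its membrane stretch can be secreted and still hold cytokine or partner chains, and shedding and alternative splicing are both known routes to such soluble receptors. In T cells, interleukin-7 keeps resting cells alive, interleukin-2 drives the growth of activated cells, and the receptors of interleukins 2, 4, 7 and 21 share the common gamma chain encoded by Il2rg.

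The cells were from wild-type male C57BL/6N mice of 6 to 10 weeks, with no transgene or deletion in any group. Naive CD4+ T cells from spleen and lymph nodes were isolated with a kit and labelled with the dye CellTrace Violet, which is diluted at each division. One library was made from naive cells, 1 from cells stimulated for 48 h with antibodies to CD3 and CD28 that had not divided (0 divisions), and 1 from cells of the same 48 h culture time that had divided 2 times, called divided cells here, both sorted on the dye. The study describes the undivided cells as the more heterogeneous of the sorted populations. There was 1 library per condition, so differences are between libraries and none was tested. Both activated libraries were run on one cell of the sequencer and the naive library on another, so the sequencer's cell and the state of activation cannot be told apart. The models carry no read counts, and a transcript was either listed or not.

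The naive library held 10527 transcript models, the undivided library 12602 and the library of divided cells 11109. At least 1 model was listed for 21% of 22028 protein-coding genes in naive cells, 24.8% in undivided cells and 23% in divided cells. Markers of CD4 T cells were listed for 10, 8 and 8 of 10 genes in that order, with Cd3g and Trac missing from both activated libraries. B cell markers were listed for 6, 2 and 2 of 10 genes with 21, 6 and 5 models, and Cd79a, Igkc, Cd22 and Pax5 had none anywhere. Myeloid markers were listed for 2, 1 and 1 of 10 genes, markers of CD8 T and NK cells for 3, 2 and 2 of 8, and markers of regulatory T cells for 4, 3 and 3 of 6. Of these markers, Csf1r, Itgam, Cd14, Csf3r, Adgre1, S100a8, S100a9, Cd8a, Klrd1, Ncr1 and Il10 had no model in any library.

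Of the 10 receptor genes, 8 had a model in naive cells, 7 in undivided cells and 6 in divided cells, with 38, 42 and 30 models. In all, 5 genes (Il2rb, Il2rg, Il4ra, Il21r and Ifngr1) were listed in all 3 libraries, as were 49.7% of the 6760 protein-coding genes listed anywhere. Il2ra was listed in both activated libraries and not in naive cells, a pattern of 15% of listed genes. Il7r and Ifngr2 were listed in naive cells alone, a pattern of 8.79% of listed genes, and Il6st in naive and undivided cells, a pattern of 6.48%. The B cell markers given above were also more numerous in the naive library, and their part in the naive-only pattern was not tested.

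Reading frames were taken from the genome sequence to see which proteins these transcripts could encode. Each was read at the annotated start codon where the model held it. Of the 110 models, 48 held the complete annotated frame, 16 in each library. A further 2 had an altered frame that kept the membrane stretch, 8 had an altered frame that lost it, and 24 were interrupted by a stop codon over 50 nt before their last junction, a position at which nonsense-mediated decay is known to act. A stop codon lay that far before the last junction in 27 models, with 2 of the complete frames and 1 frame without the annotated start counted in. A further 14 models kept the annotated start and ended in an intron, and 14 began downstream of the annotated start codon or outside its exon. With 1 of the latter, 15 models ended in an intron. Complete frames made up 42.1% of the models from naive cells (95% Clopper-Pearson interval 26.3% to 59.2%), 38.1% (23.6% to 54.4%) in undivided cells and 53.3% (34.3% to 71.7%) in divided cells. Over all protein-coding genes the shares were 46.3%, 49.3% and 50.1%, all inside the intervals of the receptor genes. The intervals cover counting error only, since models of one gene are not independent. For the 14 models without the annotated start, the membrane stretch was sought in the longest frame from any ATG. Frames without the membrane stretch, these models included, numbered 22 of 38, 19 of 42 and 12 of 30. They were 13, 12 and 8 when only multi-exon models with the annotated start and no A-rich stretch after their end were counted, a restriction chosen after seeing the data.

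**Figure D1:**
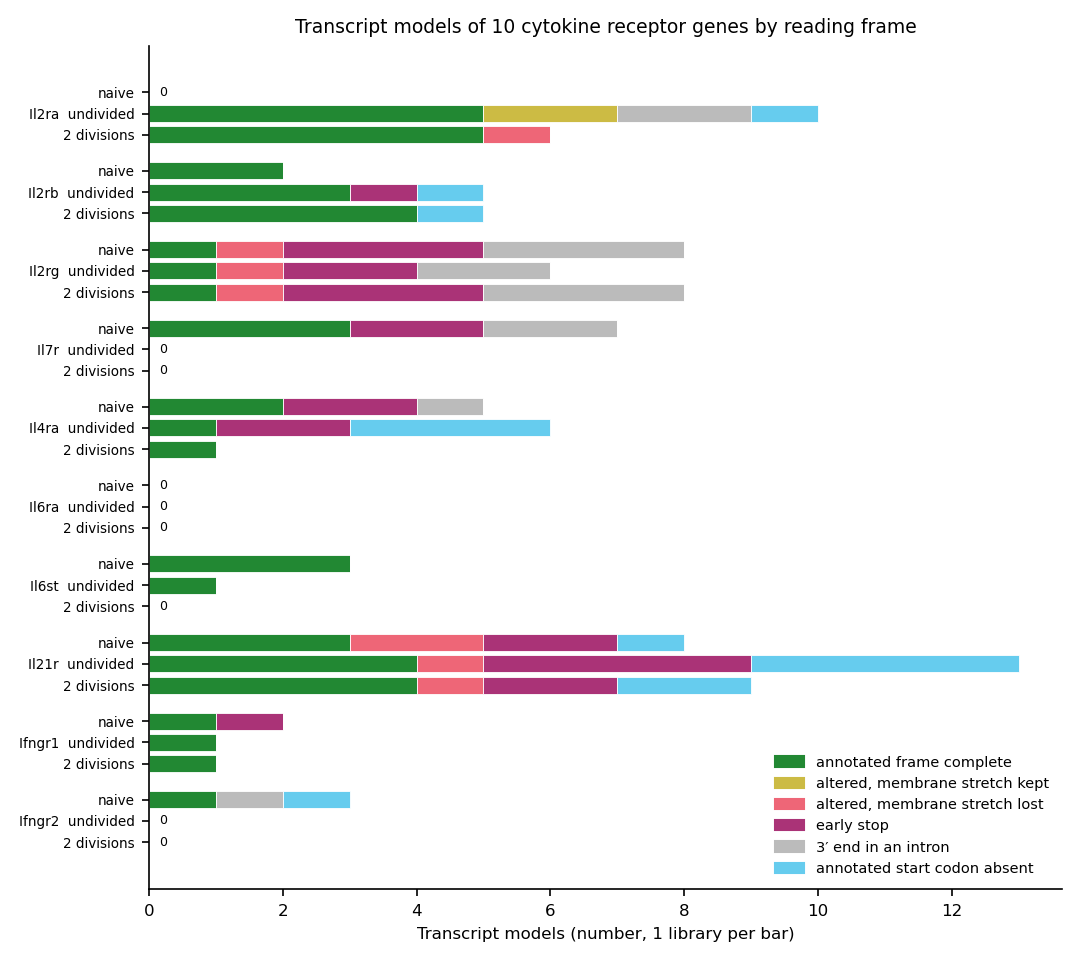
Number of transcript models (x axis) of each receptor gene in the naive, undivided and 2-division libraries (y axis, 1 library per bar), coloured by what the reading frame from the annotated start codon gave. Each library held 16 complete frames (green), Il2ra stood at 0, 10 and 6 models, Il7r at 7, 0 and 0, and Il2rg had 1 complete frame in every library.

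Skipping of the exon that holds the membrane stretch was met in several of the genes. The membrane stretch was taken as the most hydrophobic window of 19 residues after residue 40. Its exon was skipped in models of 3 of the 9 listed genes: exon 6 of Il2rg in 3 of 14 models that span it, exon 7 of Il21r in 6 of 27, and exon 6 or exon 7 of Il2ra in 2 of 14 and 1 of 13. No model skipped it among 12 of Il2rb, 5 of Il7r, 10 of Il4ra, 4 of Il6st, 4 of Ifngr1 and 1 of Ifngr2. Of the 11 exons that hold a part of a membrane stretch in the 10 genes, 10 have a length that is not a multiple of 3, so that skipping one alone shifts the frame. The exception was exon 6 of Il2ra with 72 nt, and the 2 models that skipped it kept 17 of the 19 residues of the stretch. The junctions of the events that lost the stretch are shown, with the first 15 bases of the downstream exon in capitals. They tell the membrane-bound form from the form without the stretch. All are read 5′ to 3′ from GRCm38.
Il2rg exon 5 to exon 6, minus strand of chromosome X: gtcatactgtagaggAGAATCCTTCCTTGT
Il2rg exon 5 to exon 7, exon 6 skipped: gtcatactgtagaggAATGCCTCCAATTCC
Il21r exon 6 to exon 7, plus strand of chromosome 7: agacccaggctggggAGCCCGAGGCAGGCT
Il21r exon 6 to exon 8, exon 7 skipped: agacccaggctggggGCTATGGAAAAAGAT
Il2ra exon 6 to exon 7, plus strand of chromosome 2: agtataaggtagcagTGGCCAGCTGCCTCT
Il2ra exon 6 to exon 8, exon 7 skipped: agtataaggtagcagGAGGAAGAGCAGAAG
Within each gene the junctions share the upstream exon's last bases and differ in the capitals alone.

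Il2rg (ENSMUSG00000031304.18, chrX:101264378-101268255, minus strand) encodes the common gamma chain. It had 8 models in naive cells, 6 in undivided cells and 8 in divided cells. In each library 1 model followed the annotated Il2rg-201 with a frame of 369 residues and a membrane stretch at residues 264 to 282. Each library also held 1 model without exon 6 (97 nt). Its frame had 263 residues, of which the first 254 were those of the annotated chain, followed by 9 others and the stop codon shown here in capitals at chrX:101265411-101265440.
Il2rg frame end after skipping of exon 6: tgcctccaattccccccatcaagaatcTAG
The most hydrophobic window of this frame after residue 40 averaged 0.75 on the Kyte-Doolittle scale against 2.32 for the annotated membrane stretch. A gamma chain spliced in this way is known in mouse T cells as a secreted form. GENCODE M21 does not list this chain of introns, and RefSeq holds it as a predicted transcript. The model was thus listed before stimulation and after 48 h, with and without division, and the libraries give no ratio of the forms.

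The other Il2rg models kept introns. Intron 3 (190 nt, chrX:101267121-101267310) was kept in 5 of 8 models from naive, 4 of 6 from undivided and 6 of 8 from divided cells, 15 of 22 in all. Among the models that reached the last exon, it was kept in 2 of 5, 2 of 4 and 3 of 5. Where introns 1 and 2 were spliced out, the frame then stopped inside intron 3 after 191 residues, 151 of them shared with the annotated chain. Introns 1, 2, 4 and 5 were kept in 3 of 22, 6 of 22, 2 of 14 and 2 of 14 models. Both models with intron 5 were from naive cells, and intron 4 was kept in 1 model of each activated library. All 8 models that did not reach the last exon ended within intron 4 at chrX position 101266507 or up to 6 nt past it, 3 in naive cells, 2 in undivided cells and 3 in divided cells, and all kept intron 3. Of the 20 bases after this end, 18 were A, and no poly(A) signal stood in the 50 bases before it. The sequence is shown because it sets this end apart from the end in the last exon, with A after the end and the poly(A) signal in capitals.
Il2rg, last 30 bases before the intron 4 end: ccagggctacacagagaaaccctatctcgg
Il2rg, 20 bases after the intron 4 end: AAAAccAAAAAAAAAAAAAA
Il2rg, last 30 bases before the main end: atcaacaagaAATAAAgtttttaaccaatg
The bases on both sides of the intron 4 end are marked as repeat in the genome sequence, all 50 of 50. An A-rich stretch can prime reverse transcription within a transcript, and its part in these 8 models was not tested. The other 14 models ended at position 101264389 within 6 nt, 11 nt before the annotated end, with AATAAA 14 nt before it. Of the 9 intron chains of Il2rg, 4 were found in all 3 libraries, against 9 of 51 (17.6%) over the receptor genes and 22.4% of 15876 over all genes.

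**Figure D2:**
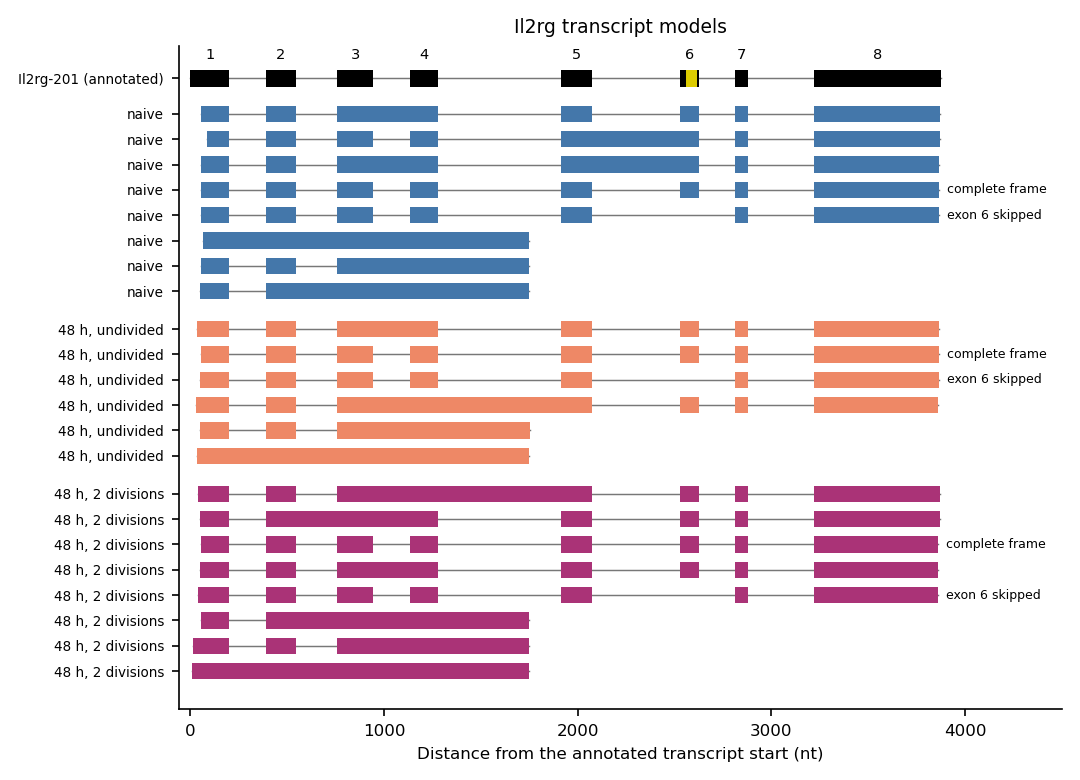
Exons (boxes) and introns (lines) of every Il2rg model, drawn to scale against the distance in nt from the annotated transcript start (x axis), with Il2rg-201 in black, its exon numbers above and its membrane stretch in yellow. Colours mark the library; each library has 1 complete frame, 1 model without exon 6, and 2 or 3 models that stop within intron 4.

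Il2ra (ENSMUSG00000026770.5, chr2:11642807-11693193, plus strand) encodes the alpha chain, CD25, which raises the affinity of the interleukin-2 receptor on activated T cells. It had no model in naive cells, 10 in undivided cells and 6 in divided cells. Both activated libraries held 5 models with the 8 exons of Il2ra-201 and the complete frame of 268 residues. The others differed between the libraries. In undivided cells, 1 model lacked exons 5 and 6, which leaves the frame intact with 220 residues and 17 of the 19 residues of the membrane stretch. Another lacked exon 6, joined exon 7 to a site 3 nt before exon 8 through an intron that ends in TC in place of AG, and gave 245 residues with 17 residues of the stretch. In divided cells, 1 model lacked exon 7 (67 nt, chromosome 2). Its frame of 279 residues shared 238 with the annotated chain and had no window after residue 40 above 0.31 on the hydropathy scale. None of these 3 intron chains is in GENCODE M21 or RefSeq. Undivided cells also held the short annotated Il2ra-202, which ends in intron 1 with 44 residues, a model that kept intron 5 and ended in intron 6 before an A-rich stretch with 238 residues, and a model that began at exon 7.

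Il2rb (ENSMUSG00000068227.9, chr15:78479256-78495271, minus strand) encodes the beta chain, which signals for interleukins 2 and 15. It had 2 models in naive cells, 5 in undivided cells and 5 in divided cells. The 10-exon chain of Il2rb-201 with its complete frame of 539 residues made up 2, 3 and 4 of them. One model of undivided cells held an extra exon of 64 nt in intron 7, and its frame stopped after 256 residues, 235 of them shared, before the membrane stretch at residues 250 to 268. The introns on both sides of this exon run from GT to AG and are in neither annotation. The remaining models began inside the gene, 1 in exon 4 in undivided cells and 1 in intron 7, just upstream of exon 8, in divided cells. All 10 models with exon 1 began at position 78495066, 205 nt into the annotated exon.

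Il7r (ENSMUSG00000003882.5, chr15:9505788-9530176, minus strand) encodes the alpha chain of the interleukin-7 receptor, which is known to be lost from the surface on stimulation. Its 7 models were all from naive cells. Of these, 3 held the complete frame of 459 residues, and 1 of the 3 had a further intron of 178 nt past the stop codon in exon 8. This intron runs from GT to AG, is in neither annotation and recurred in a model that kept intron 4 (1605 nt) and stopped after 181 residues. One model used a donor site 98 nt past the end of exon 5 and stopped after 254 residues, 236 of them shared. Its intron chain is a predicted RefSeq transcript. No model skipped exon 6, which holds the membrane stretch, among 5 that span it. The last 2 models ended before A-rich stretches in intron 4, as the annotated Il7r-202, and in intron 1. Il7r-204, an annotated form of 286 residues, was not listed.

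Il4ra (ENSMUSG00000030748.9, chr7:125552120-125579474, plus strand) encodes the alpha chain of the interleukin-4 receptor. It had 5 models in naive cells, 6 in undivided cells and 1 in divided cells. The complete frame of 810 residues was held by 2, 1 and 1 models. A model with the 12 exons of Il4ra-205 was listed in naive and in undivided cells. It has an additional exon of 114 nt before the exon of the membrane stretch, and its frame had 230 residues, 224 shared with the receptor and 6 others. A form with such an insert is the known source of the soluble mouse interleukin-4 receptor, and the annotation puts Il4ra-205 in the nonsense-mediated decay class. The end of its frame is shown with the stop codon in capitals, as the letters that separate it from the membrane-bound form.
Il4ra-205 frame end, plus strand of chromosome 7: tggtacaacccaagtaatgaaaatctgTGA
In a second model of undivided cells exon 7 ran on for 457 nt, through to the end of that insert, and the frame stopped after 232 residues. In naive cells 1 model skipped exon 5 (152 nt) and stopped after 94 residues, and 1 kept intron 2 and ended in intron 3 before an A-rich stretch. The other 3 models of undivided cells began inside the gene, with frames of 722, 587 and 466 residues from their first long ATG.

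Il21r (ENSMUSG00000030745.9, chr7:125603429-125633570, plus strand) encodes the specific chain of the interleukin-21 receptor and had the most models, 8 in naive cells, 13 in undivided cells and 9 in divided cells. Models with the complete frame of 529 residues numbered 3, 4 and 4. The model without exon 7 (97 nt) and with an otherwise complete chain, annotated as Il21r-202, was listed 2 times in naive cells, 1 time in undivided cells and 1 time in divided cells. Its frame had 268 residues, 228 of them shared. Its highest hydropathy after residue 40 was 0.97 against 2.99 for the membrane stretch at residues 238 to 256. Counting all models that span exon 7, it was skipped in 3 of 8, 1 of 11 and 2 of 8.

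A second recurring change of Il21r lay at exon 4. In 1 model of naive cells, 2 of undivided cells and 2 in divided cells, exon 3 was joined to an acceptor 52 nt upstream of exon 4. This intron of 1463 nt (chr7:125625368-125626830) runs from GT to AG and is in RefSeq and not in GENCODE M21. The annotated frame then met TGA within 2 codons of the junction, after 52 residues. The junctions are shown with the bases of the downstream exon in capitals. In the junction to the upstream acceptor, the TGA after GCAC is the stop codon in frame. The letters TGA in the annotated junction are out of frame.
Il21r exon 3 to exon 4, annotated: actcagtctcacctgGCAAGATGAATATGA
Il21r exon 3 to the upstream acceptor: actcagtctcacctgGCACTGAGCTCCACT
In 3 of the 5 models the longest frame from any ATG had 532 residues and ended with the last 478 residues of the annotated receptor, membrane stretch included. Of the other 2, the model of naive cells also had a shifted exon 5 and 1 model of divided cells skipped exon 7. Other Il21r changes were seen once or in few models. Exon 3 was skipped in naive cells, intron 5 was kept in undivided cells, and an acceptor 13 nt before exon 5 was used in 1 model each of naive and undivided cells through an intron that ends in GG. Introns of 99 nt and 44 nt inside exon 9 run from AG to AG, outside the usual splice site letters, and were listed once each in the activated libraries. Models that began after exon 1 numbered 1, 4 and 2.

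**Figure D3:**
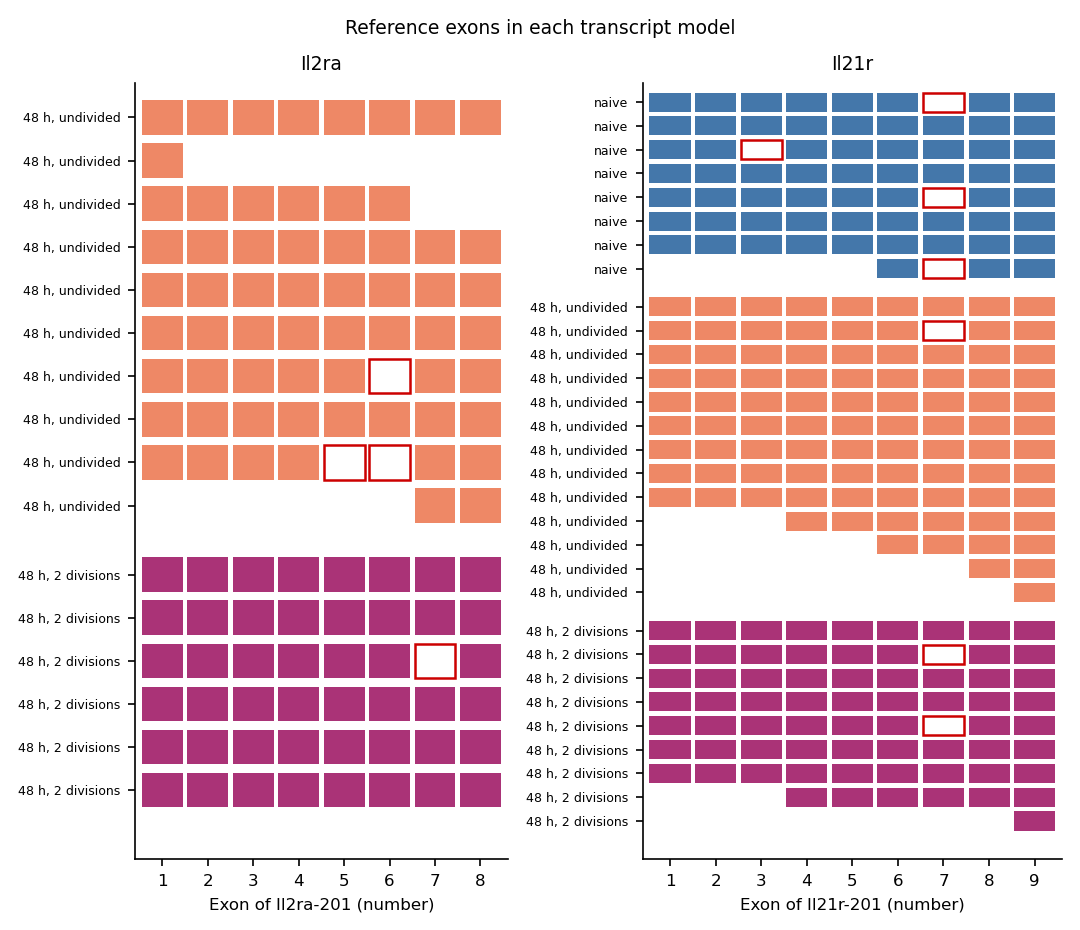
Exons of the annotated reference (x axis, exon number) held by each transcript model (rows) of Il2ra and Il21r, coloured by library; a filled box is an exon held at least in part and a red frame an exon skipped inside the model. Exon 7 of Il21r is framed in all 3 libraries, and the skipped exons of Il2ra are 5 and 6 in undivided cells and 7 in divided cells.

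Il6st (ENSMUSG00000021756.12, chr13:112464070-112510086, plus strand) encodes gp130, the signaling chain of interleukin-6 and related cytokines. All 4 of its models, 3 in naive cells and 1 in undivided cells, had the 17 exons of Il6st-203 and the complete frame of 917 residues. They shared one chain of introns and differed in their 3′ ends. None of the shorter annotated forms, such as Il6st-207 with 346 residues and Il6st-209 with 327, was listed. Il6ra, which encodes the ligand-binding chain of the same receptor, had no model, so neither its membrane form nor a soluble form could be described.

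Ifngr1 (ENSMUSG00000020009.13, chr10:19591949-19610229, plus strand) and Ifngr2 (ENSMUSG00000022965.8, chr16:91547072-91565623, plus strand) encode the ligand-binding and the accessory chain of the interferon-gamma receptor. Each library held 1 Ifngr1 model with the 7 exons of Ifngr1-201 and 477 residues. The other Ifngr1 model, from naive cells, kept intron 4 (2301 nt) and stopped after 233 residues, 190 of them shared. Ifngr2 had 3 models, all in naive cells. Of these, 1 had the complete frame of 332 residues, while the others ended in intron 1 and intron 2 before stretches with 17 and 18 A in 20 bases. The last 30 bases before the intron 2 end of Ifngr2 matched those before the intron 4 end of Il2rg at 27 of 30 positions, and both lie in sequence marked as repeat.

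The 110 models ended at 32 distinct 3′ ends, merged where they lay within 24 nt of each other. Of these ends, 8 were found in all 3 libraries, 8 in 2 and 16 in 1. An A-rich stretch, with at least 12 A in the 20 bases after the end, followed 10 of the 32, and 7 of these 10 lay outside the last exon. By model, A-rich ends made up 26.3% (13.4% to 43.1%) in the naive library, 9.52% (2.66% to 22.6%) in undivided cells and 13.3% (3.76% to 30.7%) in divided cells, beside 32%, 22% and 23% over all genes. AATAAA or ATTAAA stood in the last 50 bases of 44.7% of models from naive cells (28.6% to 61.7%), 54.8% (38.7% to 70.2%) in undivided cells and 12 of 30 models (22.7% to 59.4%) in divided cells. Over all genes these shares were 61.6%, 67.3% and 67.3%. The all-gene value lay inside the interval in undivided cells and, by a narrow margin, in naive cells, and above it in divided cells. Models of one gene are not independent, and 1 end of Il21r had 7 of the 30 models in divided cells. Over the 3 libraries, 18 of the 19 models at that end carried neither signal.

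Ends within the last exon differed by kilobases in several receptors. Il2ra used 5 ends in its last exon, and each was listed in both activated libraries. They gave 3′ UTRs of 397, 1236, 1830, 2390 and 3411 nt. In undivided cells these ends had 1, 1, 1, 4 and 1 models and in divided cells 1, 2, 1, 1 and 1. The longest is the annotated end, and the others are not within 24 nt of an annotated end. The end at 1830 nt was followed by 15 A in 20 bases. The bases before the other 4 ends are shown with the signal hexamer in capitals, since 2 of them carry AGTAAA, a rarer variant, and 2 AATAAA.
Il2ra, 3′ UTR of 397 nt, chr2:11690150-11690179: gaaagcccaAGTAAAactcagcactaatgt
Il2ra, 3′ UTR of 1236 nt, chr2:11690989-11691018: gtcAGTAAAtgtagaatttggatttctcac
Il2ra, 3′ UTR of 2390 nt, chr2:11692143-11692172: tggatttatcttgttAATAAAagaattagt
Il2ra, 3′ UTR of 3411 nt, chr2:11693164-11693193: ataagctaaAATAAAccatttcttacccat
The shortest and the longest of these forms were thus present with the same protein frame at 48 h with and without division. With no model in naive cells, their 3′ ends before activation are unknown here.

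Il2rb ended at 4 sites of its last exon, with 3′ UTRs of 336, 925, 2218 and 2279 nt. The end at 925 nt had 1, 2 and 2 models in the order naive, undivided and divided and carried AAGAAA 12 nt before it. The annotated end at 2218 nt had 1, 1 and 1 models, the end at 2279 nt had 0, 2 and 1 and lies 59 nt past the annotation, and the end at 336 nt was found in divided cells alone. A shorter and a longer 3′ UTR were thus listed in each library.
Il2rb, 3′ UTR of 925 nt, chr15:78480551-78480580: atccttgaagctAAGAAAagcttacaccac
Il2rb, 3′ UTR of 2218 nt, chr15:78479258-78479287: tgcacttaATTAAAgattttcctcatatcg

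Il21r ended mostly at 2 sites, with 3′ UTRs of 279 nt (3, 4 and 1 models) and 571 nt (4, 8 and 7 models). Of the 8 models merged at the nearer end, 6 carried AATAAA in their last 50 nt, and 2 that ended upstream of it carried no signal hexamer. Of the 19 models at the farther end, 18 carried none of 11 signal hexamers, although both ends lie within 8 nt of an annotated end. The remaining model ended 11 nt downstream and carried ATTAAA.
Il21r, 3′ UTR of 279 nt, chr7:125633241-125633270: accattggttaAATAAAattggctgcaacc
Il21r, 3′ UTR of 571 nt, chr7:125633533-125633562: ggtgacctccagtatttgtcaaagccaatt
The model without exon 7 was seen with both ends in naive cells. Il4ra ended 913 nt past the stop codon in 3, 6 and 1 models and 2418 nt past it in 1 model of naive cells, both at annotated ends. Il6st had 3′ UTRs of 2402 nt in 1 model each of naive and undivided cells, and of 4019 nt and 4896 nt in naive cells, the former before an A-rich stretch.

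The last exon of Il7r was left at 788, 1309 and 1694 nt past the stop codon by 1, 2 and 2 models of naive cells. The first of these ends was A-rich and none reached the annotated end. Distances are those on the genome, and both models that ended at 1309 nt had the further intron of 178 nt spliced out. Ifngr1 ended 537 nt past its stop codon in all 4 models, with AGTAAA 13 nt before the end, and the complete Ifngr2 model ended 995 nt past it.

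**Figure D4:**
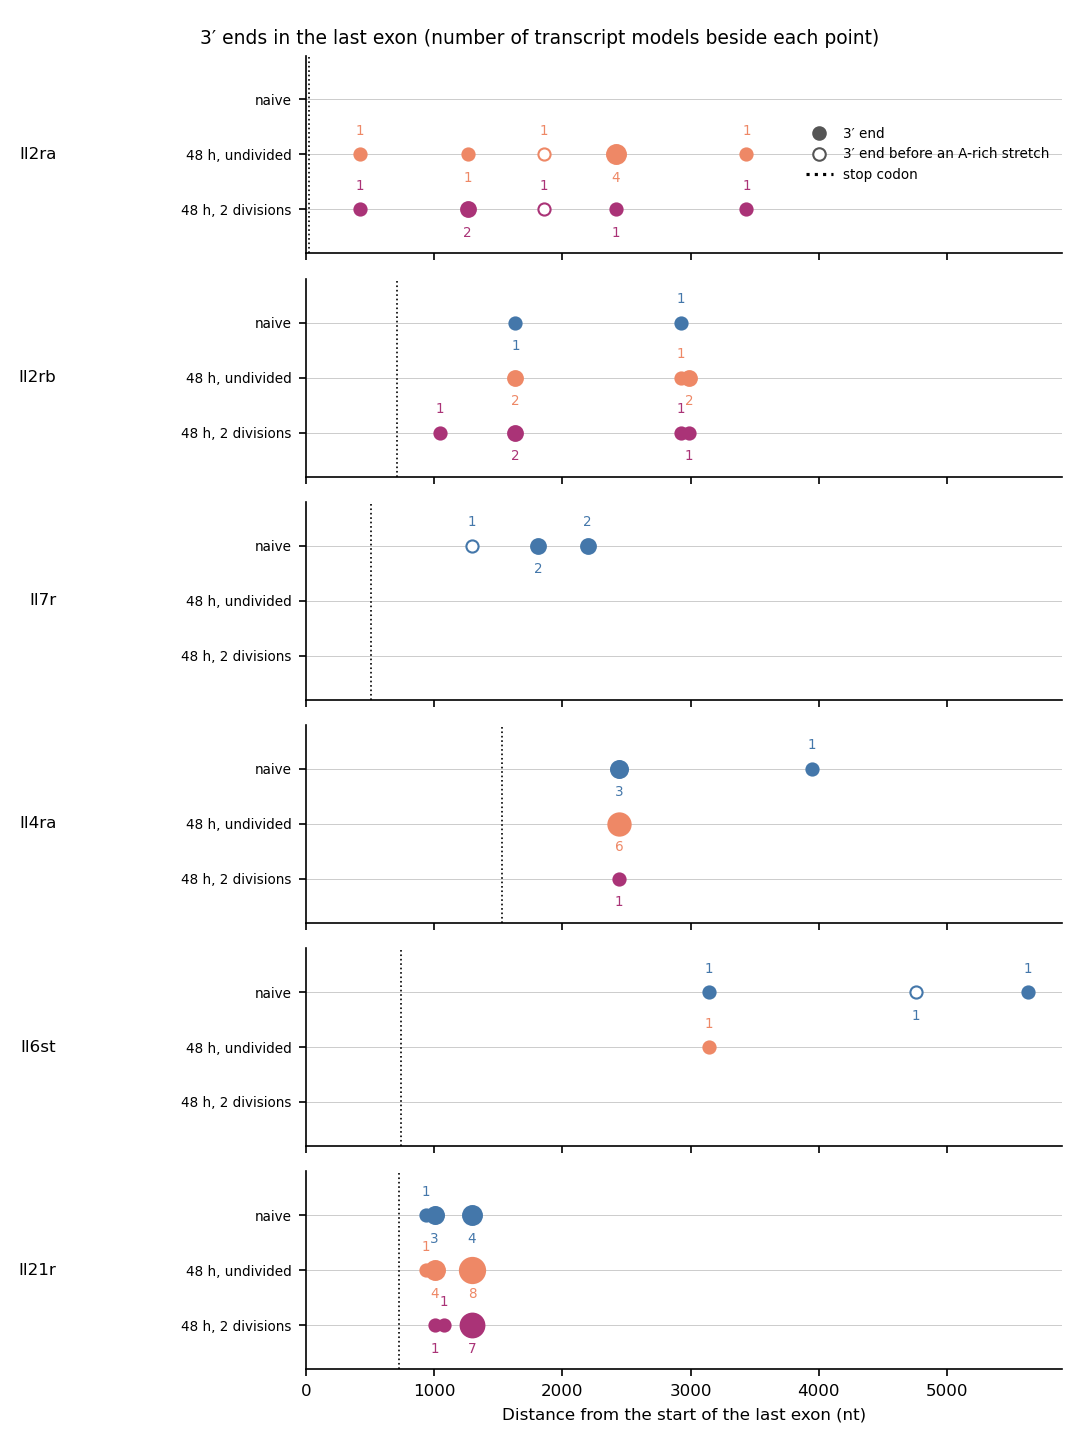
Distance of each 3′ end from the start of the last exon in nt (x axis) for 6 receptor genes in the naive, undivided and 2-division libraries (rows of each panel), with the number of transcript models beside each point and point size rising with it. Open points lie before an A-rich stretch and the dotted line is the stop codon; Il2ra has the same 5 ends in both activated libraries, and the farthest Il4ra and Il6st ends are in naive cells.

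Compared with the annotation as a whole, 15 of the 41 multi-exon annotated transcripts of the receptor genes had a model with the same chain of introns. An intron chain that GENCODE M21 does not list was found in 14 of 35 multi-exon models of naive cells (interval of the share 23.9% to 57.9%), 19 of 39 in undivided cells (48.7%, 32.4% to 65.2%) and 10 of 28 in divided cells (35.7%, 18.6% to 55.9%). Over all genes the shares were 39.7%, 38.1% and 36.6%, inside these intervals. The study names a later release of the annotation, in which some of these chains may be listed. Of the 43 such models, 17 held an unannotated intron, 11 had a consecutive part of an annotated chain, and 15 joined annotated introns in a chain not listed. There were 14 distinct unannotated introns. Of these, 10 ran from GT to AG, 2 were in RefSeq and 2 were found in more than one library. Of the 51 intron chains, 36 (70.6%) were found in 1 library, against 57.9% over all genes. With no replicate, a chain listed in one library may have gone unsampled in another.

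Other genes of cytokine signaling were listed for 24, 32 and 31 of 58 genes in naive cells, undivided cells and in divided cells, which is 41.4%, 55.2% and 53.4%. Over all 22028 protein-coding genes the shares listed were 21%, 24.8% and 23%. Further receptor chains were listed for 7, 12 and 10 of 25 genes. Il12rb2, a chain of the interleukin-12 receptor, had 0, 3 and 4 models and its partner Il12rb1 had 0, 1 and 1. Il15ra, the alpha chain of the interleukin-15 receptor that works with Il2rb and Il2rg, had 0, 2 and 4. Il1rap and Crlf2 had 0, 1 and 0 models each. Of 10 cytokine genes, Il2 had 0, 2 and 3 models and Ifng 0, 1 and 1, and the other 8 had none. Kinase and STAT genes were listed for 9, 10 and 11 of 11 and inhibitors and shedding proteases for 8, 8 and 8 of 12. Stat2 had 0, 4 and 3 models, Jak2 0, 0 and 2, Socs2, an inhibitor of cytokine signaling, 0, 1 and 1, and Pias3 1, 0 and 0. Of these lists, Il2, Ifng, Il15ra, Il12rb1, Il12rb2, Stat2 and Socs2 were thus listed in both activated libraries and not in naive cells, as was Il2ra. This was the pattern of 15% of the 6760 protein-coding genes listed anywhere.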

How the data were processed

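The 3 libraries were sequenced as full-length cDNA on a PacBio instrument. By the authors' account, ccs gave the consensus reads, lima trimmed primers, isoseq3 retained reads ending in at least 20 A and clustered them, pbmm2 placed the clusters on the genome, and isoseq3 and SQANTI3 collapsed and annotated the result. The deposited values are exon positions on GRCm38 with no counts, so depth per transcript is unknown. The submitters' processing notes name minimap2, Subread, mm10 and GRCm38.

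Models were assigned by shared splice sites to GENCODE M21 genes; the study names a later release, so a chain called unannotated here may be annotated there. The receptor genes and gene lists were chosen with earlier results of these data known. All 10 genes are named, and genes of the signaling lists where listed in 1 or 2 libraries. Cell type markers listed in no library are named too. Frames were read from the RefSeq GRCm38 genome from the start codon of the longest annotated frame (ties went to the transcript with most exons). Where a model lacked that start codon, the longest frame from any ATG was read. A membrane stretch counted as kept with at least 15 of its 19 residues. Poly(A) signals were 11 hexamers (AATAAA or ATTAAA or AGTAAA or TATAAA or CATAAA or GATAAA or AATATA or AATACA or AATAGA or ACTAAA or AAGAAA) searched on the transcript strand in the last 50 nt. Sequences were taken from the RefSeq GRCm38 genome. The assignment step was tested on simulated models with an exon left out, and the frame step on annotated transcripts alone. Alternatives covered A-rich ends, distinct intron chains, assignment by exonic bases, annotation, the choice of frame and merging of ends. Python 3.11.15, pysam 0.24.0, numpy 2.4.6, scipy 1.17.1 and matplotlib 3.10.9 were used.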

Additional observations from a re-analysis of the deposited data

Results flagged for a closer look

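Within Il2ra, on the strand opposite to the gene, 2 single-exon models were listed, 1 in each activated library. They share the position 11678235 on chromosome 2 as their 3′ end and are 1535 nt long in undivided cells and 1939 nt in divided cells. They were singled out because they lie outside the models assigned to the receptor genes and no such model was listed in naive cells. Of the 20 bases after their common end, 16 were A. Their relation to Il2ra was not tested.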

How the results depend on the processing

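No paired analysis was possible because each condition had 1 library, and no replicate could be left out. Counting distinct intron chains in place of models left 19 for the receptor genes in divided cells in place of 30. When a model counted as unannotated only if it held an unannotated intron, the shares were 17.1% in naive cells, 17.9% in undivided cells and 14.3% in divided cells. When consecutive parts of annotated chains counted as annotated, the share in undivided cells was 30.8%. Frames without the membrane stretch in undivided cells were 12 when the longest frame from any ATG was read for every model. With multi-exon models that hold the annotated start and no A-rich end, an alternative chosen after seeing the data, they were 13 in naive cells, 12 in undivided cells and 8 in divided cells. Without A-rich ends, 14 distinct 3′ ends in naive cells remained in place of 22. With at least 2 models per gene, 14, 21 and 20 other signaling genes were listed in naive cells, undivided cells and in divided cells. The other 27 values on the receptor genes as a whole and the lists together moved by less than 1.5 times or stayed within their interval under the alternatives run, as did 113 values for single genes and lists, while 19 moved further. Counts of 0 are among the 113, and only assignment by exonic bases could have moved them. The presence or absence of each receptor gene in each library was the same under assignment by exonic bases. The libraries hold no read counts, so a receptor gene with no model may still be transcribed.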

Other observations

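Single-exon models on the opposite strand were also listed within Il6st (1998 nt) and Ifngr2 (1525 nt), both in naive cells and before stretches with 17 and 19 A in 20 bases.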
